A study of Danio rerio with 34 samples.

Results

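The transcripts of 9 Notch, Delta and Her genes were followed in the early zebrafish embryo. They were the receptors notch1a and notch3, the Delta ligands dla, dlc and dld, and the hairy/enhancer of split genes her1, her3, her7 and her9. Signalling itself was not measured. The genes were named in a list drawn up with earlier results of these data known, with no threshold on their values, and each was matched by symbol to 1 RefSeq transcript. All 9 transcripts were among the 13856 in the RNA-seq files and among the 9945 that entered the tests, and 8 were among the 9116 in the structure-probing files (dla was not listed there). Whole embryos of strain AB were used throughout. RNA-seq of polyadenylated RNA covered 5 groups of 2 libraries: control embryos, labelled as normal, at 2, 4 and 6 h.p.f. (hours post fertilization), and elavl1a morphants at 4 and 6 h.p.f. Morphants are embryos injected at the one-cell stage with a morpholino against the start codon of elavl1a, which encodes an RNA-binding protein. The labels do not say whether the controls were injected. The paper describes a control morpholino, also injected at the one-cell stage, but does not state that these RNA-seq controls received it. RNA structure was probed by icSHAPE: the reagent NAI-N3 marks unpaired or flexible nucleotides, and RNA treated with DMSO serves as background. Wild type was profiled at 6 stages (0, 0.4, 1, 2, 4 and 6 h.p.f.) and morphants at the last 2. The profile of a stage or condition was deposited as 1 pooled set of values.

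Delta ligands on one cell bind Notch receptors on its neighbour, and proteases then cut the receptor so that its intracellular part enters the nucleus and, with the DNA-binding protein Rbpj, turns on target genes. Many genes of the hairy/enhancer of split family, which encode transcriptional repressors, are such targets. In zebrafish the pathway is best known for the segmentation clock that paces somite formation, where her1, her7, dlc and dld act. It is also known for limiting how many cells become neurons, where the Delta genes act. Whether the Her members were Notch targets at these stages was not tested. Early embryos live on transcripts that the mother laid down in the egg, and most zygotic genes switch on only after the cleavage stages.

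The libraries held 61776396 to 104388477 uniquely mapped reads, and 1.6% to 2.75% of all mapped reads fitted several transcripts. Levels are given in RPKM, read counts scaled to transcript length and library size, which can be compared between genes. RPKM takes uniquely and multiply mapped reads together, while the tests used uniquely mapped reads alone. A fold in RPKM and the log2 fold change beside it therefore differ where many reads fitted several transcripts. A transcript under 0.1 RPKM in a library was not listed there. Such a transcript is called unlisted, which does not mean absent, and a ratio against it is given only as a lower bound. In whole embryos, fewer cells of a type and less RNA per cell cannot be told apart. The summed level of 5 maternal markers (btg4, zar1, buc, slbp2 and ccna1) fell in controls from 2761 to 2765 RPKM (2 h.p.f.) over 1418 to 1425 (4 h.p.f.) to 101 to 102 RPKM (6 h.p.f.), while 8 markers that rise by the shield stage went from 3.17 to 3.34 RPKM up to 3813 to 3817. The stage labels of the controls thus fitted the sums of the maternal markers and of those that rise by shield. A further 3 markers, of later tissues (hbbe1.1, ins and elavl3), summed to at most 3.57 RPKM in any library. The elavl1a transcript was at 202 and 200 RPKM in controls and 205 and 204.2 RPKM in morphants at 4 h.p.f. At 6 h.p.f. it was at 298 and 299 against 343 and 342 RPKM. A morpholino that blocks translation need not lower its transcript, so these values do not check the knockdown. The paper reports a check of the knockdown by western blot.

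The 9 genes fell into 2 that were abundant from the start, dld and notch1a, and 7 that were at 3.78 RPKM or less in controls until 4 h.p.f. and reached 8.60 to 56.9 RPKM in the control libraries at 6 h.p.f. In controls dld was the most abundant member at 2 h.p.f. (72.2 RPKM) and 4 h.p.f. (56.6 RPKM), followed by notch1a (15.7 and 18.6 RPKM). By 6 h.p.f. the order was her7, her1, dlc, dld, her3, notch1a, her9, notch3 and dla, with means of 55.9, 48.7, 42.8, 34.4, 27, 25.2, 10.7, 9.74 and 8.78 RPKM. No neighbours in that order overlapped between libraries. At 2 and 4 h.p.f. her1 and her9, both under 0.5 RPKM, did overlap.

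**Figure D1:**
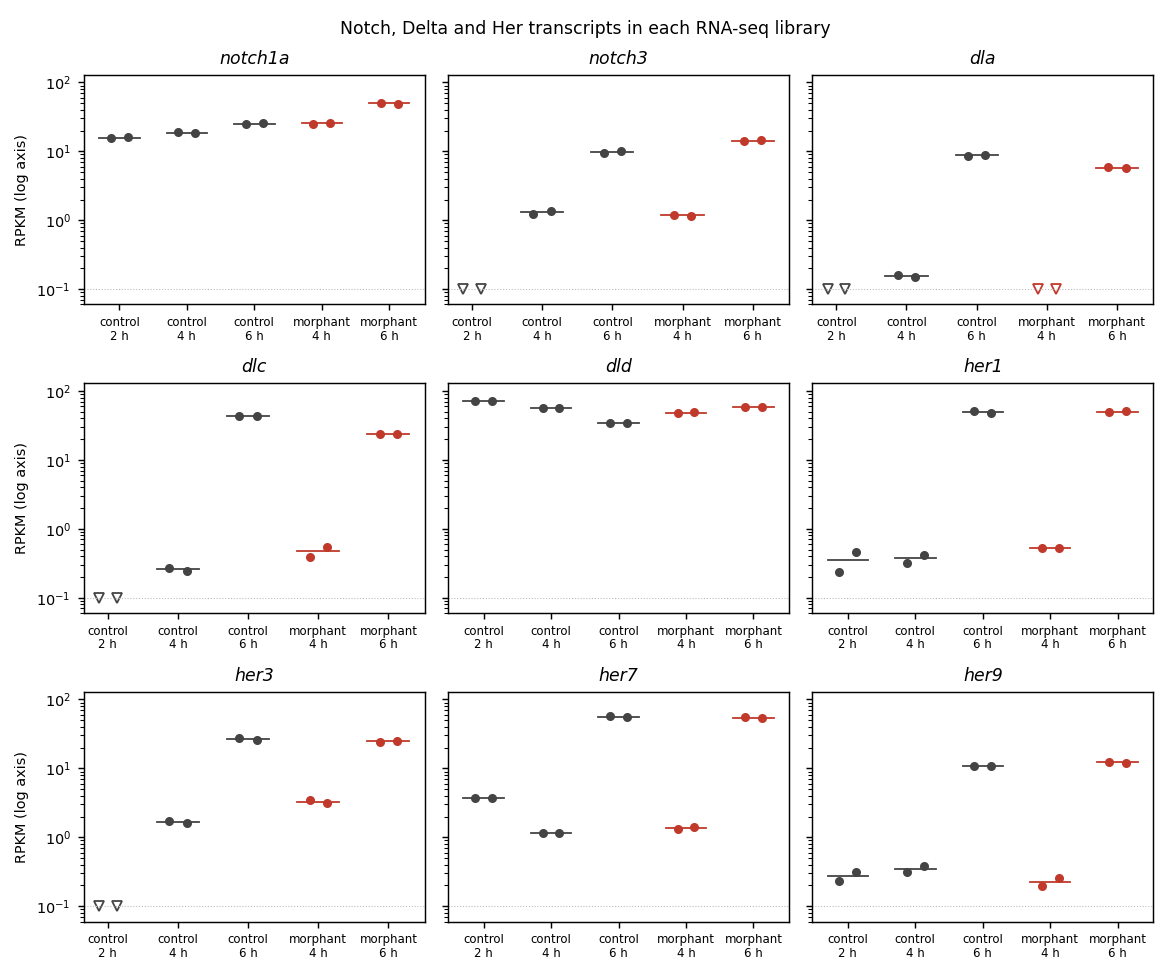
RPKM on a log axis of each member in the 10 RNA-seq libraries, with 1 point per library, a bar at the mean of the 2 libraries of a group, and an open triangle at 0.1 RPKM where the transcript was unlisted. The points of dld and notch1a stay above 15 RPKM in every library, while the other 7 members climb to at least 5.65 RPKM at 6 h.p.f. from 3.78 RPKM or less.

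Among the receptors, notch1a was present at every stage. Its control libraries held 15.5 and 15.9 RPKM at 2 h.p.f., 18.8 and 18.5 RPKM at 4 h.p.f., then 24.9 and 25.6 at 6 h.p.f. The 3 stages did not overlap, and the rise from 4 to 6 h.p.f. was 1.35-fold (log2 fold change 0.47 ± 0.03 SE, edgeR quasi-likelihood adjusted p = 6.36e-13). Scaled to library totals, the median log2 fold change over all 9945 transcripts was −0.64, so notch1a lay 1.11 above it. That median depends on the scaling, and was −0.069 with TMM and 0.097 in DESeq2.

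The second receptor, notch3, was unlisted in both control libraries at 2 h.p.f. It reached 1.23 and 1.38 RPKM at 4 h.p.f., at least 13-fold above the listing limit on average, and 9.43 and 10.0 RPKM at 6 h.p.f. Every later library thus lay above the earlier ones. The step from 4 to 6 h.p.f. was 7.47-fold (log2 fold change 3.22 ± 0.06 SE, edgeR adjusted p = 3.23e-20).

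The ligand dld, a somite clock gene that is also active in neurogenesis, was the only member whose RPKM was lower at each later control stage. Its libraries held 72.0 and 72.4 RPKM at 2 h.p.f., 56.2 and 57.0 RPKM at 4 h.p.f., then 33.9 and 34.8 at 6 h.p.f. No stages overlapped, and each step down passed the test in edgeR, with log2 fold changes of −0.36 ± 0.03 SE (adjusted p = 3.17e-10) and then −0.75 ± 0.03 SE (adjusted p = 1.79e-15). This fall was close to that of the median transcript, from which it differed by −0.13 and −0.11 on the log2 scale. With the size factors of DESeq2, which centre the typical transcript, both steps lost significance (log2 fold changes −0.060 and −0.0093, DESeq2 adjusted p = 0.115 and 0.816).

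The ligand dlc, the other Delta gene of the segmentation clock, behaved in the opposite way. It was unlisted in both control libraries at 2 h.p.f., was at 0.273 and 0.243 RPKM at 4 h.p.f. (43 and 32 uniquely mapped reads), and then at 42.6 and 43.0 RPKM at 6 h.p.f. (14177 and 11165 reads). The gap between 4 and 6 h.p.f. was the widest of any member, 166-fold in mean RPKM (log2 fold change 8.14 ± 0.09 SE, edgeR adjusted p = 5.54e-24). The log2 value, from uniquely mapped reads, is larger than that fold. Multiply mapped reads were 42.7% and 44.8% of all dlc reads in the 4 h.p.f. libraries.

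The third ligand, dla, whose product limits the number of early neurons, was unlisted at 2 h.p.f., barely listed at 4 h.p.f. with 0.163 and 0.150 RPKM, and at 8.60 and 8.96 RPKM at 6 h.p.f. The 6 h.p.f. libraries stood far above the others, 56.1-fold over those at 4 h.p.f. (log2 fold change 6.38 ± 0.15 SE, edgeR adjusted p = 2.50e-18). Its 4 h.p.f. libraries rested on 32 and 22 uniquely mapped reads, and 36% and 45% of all dla reads there were multiply mapped. The difference from 2 h.p.f. was not called once the unlisted libraries were set to the most reads the limit allows (edgeR adjusted p = 0.836).

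The clock gene her7 was the only Her member clearly listed at 2 h.p.f., and it dipped before it rose. Its control libraries held 3.78 and 3.73 RPKM at 2 h.p.f., 1.17 and 1.157 RPKM at 4 h.p.f., then 56.9 and 54.9 at 6 h.p.f. The 4 h.p.f. libraries were the lowest, and 36.7% and 21.4% of all her7 reads there were multiply mapped. The dip was 3.22-fold (log2 fold change −1.96 ± 0.13 SE, edgeR adjusted p = 1.30e-11), a difference of −1.72 from the median transcript, and the rise after it was 48.0-fold (6.04 ± 0.09 SE, adjusted p = 1.29e-22).

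The other clock gene, her1, was at 0.234 and 0.459 RPKM at 2 h.p.f. and 0.324 and 0.423 RPKM at 4 h.p.f., which overlapped (edgeR adjusted p = 0.805). At 6 h.p.f. it was at 50.3 and 47.1 RPKM, 130-fold above 4 h.p.f. (log2 fold change 7.90 ± 0.13 SE, edgeR adjusted p = 2.28e-22). The low stages rested on 20 to 54 uniquely mapped reads a library, and up to 48.0% of all her1 reads there also fitted another transcript.

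The gene her3 was unlisted at 2 h.p.f., at 1.75 and 1.63 RPKM at 4 h.p.f. and at 27.8 and 26.2 RPKM at 6 h.p.f., a 16-fold step (log2 fold change 4.28 ± 0.13 SE, edgeR adjusted p = 2.97e-17). The gene her9 was at 0.230 and 0.319 RPKM at 2 h.p.f. and 0.311 and 0.379 RPKM at 4 h.p.f., which overlapped (adjusted p = 0.161 in edgeR). With all libraries DESeq2 called that difference higher (log2 fold change 0.93, adjusted p = 0.0425). Without the second control library at 2 h.p.f. the log2 fold change was 1.67, but the library left there held 10 uniquely mapped reads. The 2 h.p.f. libraries rested on 10 and 36 such reads, and 66.7% and 25% of all her9 reads there were multiply mapped. At 6 h.p.f. her9 reached 10.7 RPKM in both libraries, 31.0-fold above 4 h.p.f. (5.29 ± 0.23 SE, edgeR adjusted p = 4.71e-15).

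Counted over the members, 8 of 9 were called higher and 1 lower from 4 to 6 h.p.f. in controls at an edgeR adjusted p under 0.05, where 30.1% of all transcripts were called higher and 63.0% lower (93.1% in either direction). The median member rose by 5.29 on the log2 scale, beside −0.64 over all transcripts. Before 6 h.p.f. dla, dlc, her1 and her9 were under 1 RPKM in every library. In the same libraries notch3 was at 1.38 RPKM or less and her3 at 3.43 RPKM or less, and both were unlisted at 2 h.p.f. All of these met the filter of a mean of at least 1 RPKM over the 10 libraries only through 6 h.p.f. For all but her3, whose other libraries fell just short, a rise by then was thus a condition of being tested. The counts and median of the members partly follow from it. From 2 to 4 h.p.f. the counts were 5 higher and 2 lower, where 28.2% and 55.0% of all transcripts were called (83.3% together), and 4 of the 5 rested on unlisted libraries; with those set to the listing limit, 4 were called higher. Between 2 and 6 h.p.f. 8 members were called higher and 1 lower (29.9% and 65.5% of all transcripts, 95.5% together).

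Between morphants and controls the receptors and ligands differed by more than the spread between libraries at 6 h.p.f., while the Her genes did not pass the test there. At 6 h.p.f. 3 members were called higher (notch1a, notch3 and dld) and 2 lower (dla and dlc), where 40.6% of all transcripts were called higher and 39.0% lower (79.6% together). At 4 h.p.f. 4 were called higher (notch1a, dlc, her1 and her3) and 2 lower (dla and dld), where 39.5% and 22.9% of all transcripts were called (62.5% together). The shares called were high for all transcripts, so the counts of members say little by themselves, and the sizes are given for each gene.

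**Figure D2:**
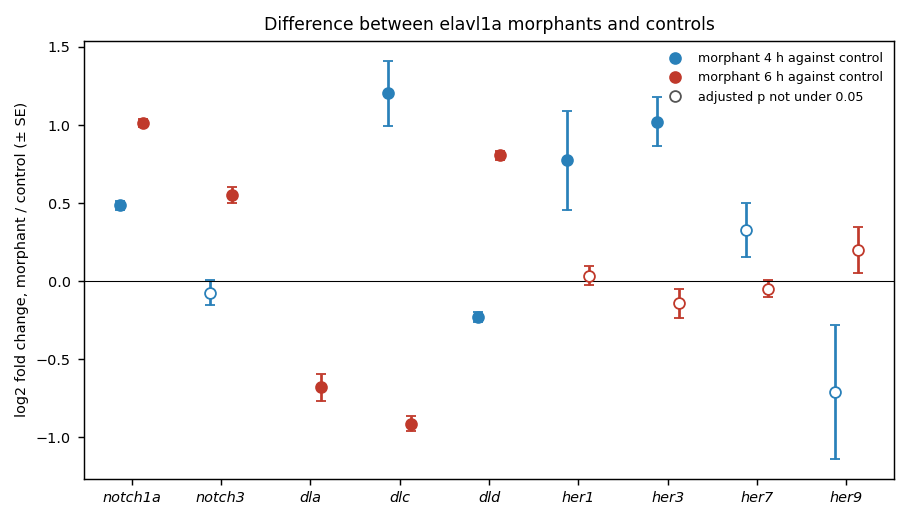
Log2 fold change of each member in elavl1a morphants against controls at 4 h.p.f. (blue) and 6 h.p.f. (red), with the standard error of the edgeR fit as bars and open symbols where the adjusted p was not under 0.05. At 6 h.p.f. notch1a, notch3 and dld lie above 0, dla and dlc below, and the 4 Her genes between −0.14 and 0.20; dla at 4 h.p.f. is left out because it was unlisted in morphants.

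In morphants notch1a was higher at both stages. It was at 25.1 and 26.1 RPKM at 4 h.p.f., above the control libraries at 18.8 and 18.5, and at 50.2 and 49.3 RPKM at 6 h.p.f., above the controls at 24.9 and 25.6. At neither stage did the groups overlap, and the differences were 1.37-fold (log2 fold change 0.49 ± 0.03 SE, edgeR adjusted p = 7.78e-12) and 1.97-fold (1.01 ± 0.03 SE, adjusted p = 2.93e-18). The morphants at 4 h.p.f. had about the level that controls reached at 6 h.p.f., 25.6 against 25.2 RPKM on average.

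The other receptor, notch3, differed at 6 h.p.f. At 4 h.p.f. the morphants held 1.19 and 1.164 RPKM and the controls 1.23 and 1.38, and the difference did not pass the test (log2 fold change −0.07 ± 0.08 SE, edgeR adjusted p = 0.432). By 6 h.p.f. both morphant libraries, at 14.1 and 14.6 RPKM, lay above both controls, at 9.43 and 10.0 RPKM (1.47-fold, 0.55 ± 0.05 SE, adjusted p = 5.20e-09).

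The Delta ligands changed places. In morphants dld was at 48.3 and 48.8 RPKM at 4 h.p.f., below the controls at 56.2 and 57.0, and at 58.8 and 59.0 RPKM at 6 h.p.f., above the controls at 33.9 and 34.8. The groups did not overlap at either stage, with log2 fold changes of −0.23 ± 0.03 SE (edgeR adjusted p = 1.72e-06) and 0.81 ± 0.03 SE (adjusted p = 2.08e-15). So dld fell by 0.75 on the log2 scale from 4 to 6 h.p.f. in controls and rose by 0.29 in morphants.

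For dlc the signs were the reverse. Morphants held 0.392 and 0.550 RPKM at 4 h.p.f. (63 and 107 uniquely mapped reads), above the controls at 0.273 and 0.243, and 23.4 and 23.5 RPKM at 6 h.p.f., below the controls at 42.6 and 43.0. Again no libraries overlapped, and the log2 fold changes were 1.20 ± 0.21 SE (edgeR adjusted p = 5.50e-05) and −0.91 ± 0.05 SE (adjusted p = 8.83e-13).

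At 6 h.p.f. dla was lower too, with 5.84 and 5.65 RPKM in morphants against 8.60 and 8.96 in controls (1.53-fold lower, log2 fold change −0.68 ± 0.09 SE, edgeR adjusted p = 1.46e-06). Earlier, at 4 h.p.f., it was unlisted in both morphant libraries, and the controls averaged 1.56 times the listing limit. The call at 4 h.p.f. rested on taking unlisted as 0 reads and was lost at the listing limit (edgeR adjusted p = 0.876).

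The 3 ligands together summed to 85.1 and 86.7 RPKM in controls and 88.1 and 88.2 RPKM in morphants at 6 h.p.f. Within that sum dlc made up 50.04% and 49.6% in controls and 26.6% and 26.7% in morphants. The share of dld was 39.9% and 40.1% in controls and 66.8% and 66.9% in morphants, so the leading ligand was dlc in the former and dld in the latter.

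**Figure D3:**
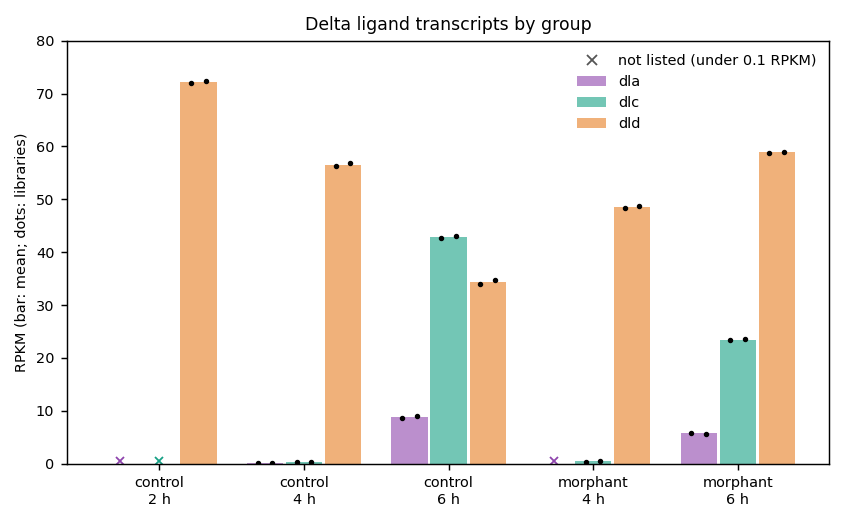
RPKM of dla, dlc and dld in the 5 groups, with bars for the mean of 2 libraries, dots for the libraries and crosses where a transcript was unlisted. At 6 h.p.f. the dlc bar is the tallest in controls (42.8 RPKM) and the dld bar in morphants (58.9 RPKM), while dld is nearly the sole one of these Delta transcripts at 2 and 4 h.p.f.

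The Her genes reached similar levels in both groups at 6 h.p.f. In morphants her1 was at 49.5 and 50.6 RPKM against 50.3 and 47.1 in controls, which overlapped (log2 fold change 0.04 ± 0.06 SE, edgeR adjusted p = 0.607). The clock partner her7 was at 54.9 and 53.4 RPKM against 56.9 and 54.9 (−0.05 ± 0.06 SE, adjusted p = 0.453 in edgeR). For her3 the values were 24.3 and 25.0 against 27.8 and 26.2 RPKM (−0.14 ± 0.09 SE, edgeR adjusted p = 0.170).

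For her9 they were 12.3 and 12.1 against 10.7 RPKM in both controls (0.20 ± 0.15 SE, edgeR adjusted p = 0.214). The libraries of her1 overlapped between the groups, while those of her3, her9 and, narrowly, her7 did not. The unadjusted edgeR p of the 4 Her genes at 6 h.p.f. was 0.146 to 0.573. These p-values do not show that the levels were equal, and her3 and her7 were called lower once the libraries were scaled by TMM (log2 fold changes −0.22 and −0.12, edgeR adjusted p = 0.0332 and 0.0421) or in DESeq2 (−0.24 and −0.15, adjusted p = 0.0195 and 0.0225). With the groups at 6 h.p.f. fitted alone, edgeR called her3 lower (adjusted p = 0.0421) and her9 higher (adjusted p = 0.0171).

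At 4 h.p.f. her3 was at 3.43 and 3.12 RPKM in morphants and 1.75 and 1.63 in controls, a 1.94-fold difference without overlap (log2 fold change 1.02 ± 0.16 SE, edgeR adjusted p = 1.56e-05). The call of her1 at this stage was weak: 0.522 RPKM in both morphant libraries against 0.324 and 0.423 (0.77 ± 0.32 SE, edgeR adjusted p = 0.0417, with 42 uniquely mapped reads in each morphant library and 24 and 26 in the controls). It was lost under TMM and in DESeq2, and without any 1 of the 4 libraries compared (adjusted p = 0.0664 to 0.219 in edgeR).

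Neither her7 nor her9 passed the test at 4 h.p.f. The morphant libraries of her7 were at 1.33 and 1.43 RPKM beside 1.17 and 1.157 in controls (0.33 ± 0.17 SE, edgeR adjusted p = 0.102). Those of her9 were at 0.195 and 0.260 RPKM beside 0.311 and 0.379 (−0.71 ± 0.43 SE, edgeR adjusted p = 0.160). For neither gene did the groups overlap, but her9 rested on 14 to 28 uniquely mapped reads a library.

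Within morphants all 9 members were called higher at 6 than at 4 h.p.f., where 32.1% of all transcripts were called higher and 61.4% lower (93.5% together). Here too dla, dlc, her1, her9, notch3 and, narrowly, her3 had passed the filter on level only through their 6 h.p.f. libraries. Whether the change from 4 to 6 h.p.f. differed between morphants and controls was tested as an interaction in the same edgeR fit. The change was larger in morphants for dld (by 1.03 ± 0.04 SE on the log2 scale, adjusted p = 1.75e-14), notch3 (0.63 ± 0.09 SE, adjusted p = 6.69e-06) and notch1a (0.53 ± 0.04 SE, adjusted p = 1.01e-10). It was smaller for dlc (−2.12 ± 0.21 SE, adjusted p = 2.83e-08), her3 (−1.163 ± 0.18 SE, adjusted p = 1.24e-05) and her1 (−0.74 ± 0.33 SE, adjusted p = 0.0477). The her1 call is as fragile as its call at 4 h.p.f. (edgeR adjusted p = 0.0556 to 0.224 without any 1 of 7 libraries of the 8 compared).

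In that test her7 (−0.38 ± 0.18 SE, edgeR adjusted p = 0.0667) and her9 (0.91 ± 0.45 SE, edgeR adjusted p = 0.0773) did not pass. They did without single libraries: her7 without control replicate 2 at 4 h.p.f. (−0.52, edgeR adjusted p = 0.0365), and her9 without either control library at 2 h.p.f. (0.91, edgeR adjusted p = 0.0306 and 0.0303). As fitted, 4 members were called higher and 3 lower, where 35.3% and 38.8% of all transcripts were called (74.1% together); with unlisted libraries at the listing limit dla turned from higher to lower (log2 −0.73 ± 0.28 SE, edgeR adjusted p = 0.0240), which gave 3 higher and 4 lower.

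Stage markers moved with the morphant libraries too. At 4 h.p.f. the 5 maternal markers summed to 1668 to 1679 RPKM in morphants, above the 1418 to 1425 RPKM in controls, with 4 called higher and 1 lower. The 8 markers that rise by shield summed to 496 to 498 RPKM, below the 709 to 712 RPKM in controls, with 5 called lower and 1 higher. The 3 early zygotic markers (mxtx2, vox and vent) summed to 259.6 to 267 RPKM in morphants and 390.9 to 391.3 RPKM in controls, and all were called lower. At 6 h.p.f. the maternal markers summed to 87.9 to 90.3 RPKM in morphants and 101 to 102 in controls, with 1 called higher and 2 lower. The early zygotic markers summed to 322 to 325 RPKM against 284 to 288 RPKM, and all 3 were called higher. Most of that sum was vox (281 RPKM in morphants, 265 in controls). In controls from 4 to 6 h.p.f. these markers did not move together, with 1 called higher, 1 lower and 1 not called. There mxtx2 went from 126 to 2.29 RPKM, vox from 253 to 265 and vent from 12.4 to 18.6. Their sum at 6 h.p.f. is therefore a poor guide to stage. The markers that rise by shield summed to 3084 to 3100 RPKM in morphants and 3813 to 3817 RPKM in controls, with 4 called higher and 3 lower. That difference was carried by krt4, a keratin gene: without it, a sum chosen after seeing the data, the other 7 were at 1207 to 1213 RPKM in morphants and 1087 to 1098 RPKM in controls. Without krt4 at 4 h.p.f. the morphants stayed lower, at 301 to 304 against 384.7 to 384.8 RPKM. The paper reports that elavl1a morphants reached the sphere stage somewhat late and that their gastrulation was clearly delayed. Groups of equal hours may therefore differ in stage, and that cannot be told apart here from other effects of the morpholino. The part of developmental age in the differences of the members was not tested.

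The wider pathway was read from a list of 53 further genes, of which 45 were in the RNA-seq files and 31 were tested. From 4 to 6 h.p.f. in controls 9 of the 31 were called higher and 21 lower (30.1% and 63.0% of all transcripts), with a median log2 fold change of −0.74 beside −0.64 over all transcripts. The largest rises were those of hes6 (14.2 to 295 RPKM on average, log2 fold change 4.54 ± 0.03 SE, edgeR adjusted p = 1.47e-27) and her12 (0.383 to 4.49 RPKM, 4.44 ± 0.33 SE, adjusted p = 4.30e-11), both of the hairy/enhancer of split family. Before 6 h.p.f. her12 was at 1.02 RPKM or less in every library. It passed the filter on level only through 6 h.p.f., so a rise was a condition of its being tested. The largest falls were those of her5 (95.4 to 4.73 RPKM, −4.54 ± 0.07 SE, adjusted p = 1.01e-22) and hey2 (4.72 to 0.741 RPKM, −2.67 ± 0.13 SE, adjusted p = 2.64e-14). The Her family therefore did not move as one: her5 was highest at 4 h.p.f., when her1, her7 and her9 were at 1.17 RPKM or less.

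From 2 to 4 h.p.f. 11 pathway genes were called higher and 13 lower (28.2% and 55.0% of all transcripts). The leading rises were her8a, unlisted at 2 h.p.f. and at least 133-fold above the limit at 4 h.p.f. with 13.3 RPKM, and her5 (0.191 to 95.4 RPKM). The leading falls were hey2 (10.7 to 4.72 RPKM, log2 fold change −1.32 ± 0.10 SE, edgeR adjusted p = 7.84e-11) and rfng, a glycosyltransferase of the fringe family (41.5 to 20.4 RPKM, −1.09 ± 0.04 SE, adjusted p = 2.34e-15). Over the whole span from 2 to 6 h.p.f. 14 were called higher (29.9% of all transcripts), led by her8a (106 RPKM at 6 h.p.f.) and hes6, and 16 lower (65.5%), led by hey2 and rbpjb (15.0 to 1.92 RPKM), a gene for the DNA-binding partner of Notch.

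In morphants at 4 h.p.f. 15 of the 31 pathway genes were called higher and 3 lower than in controls, where 39.5% and 22.9% of all transcripts were called. Of all calls in this comparison 63.3% were higher, but 49.2% with TMM and 44.9% in DESeq2, so the balance of directions depends on the scaling. The largest differences upward were her12 (0.978 against 0.383 RPKM, log2 fold change 1.98 ± 0.40 SE, edgeR adjusted p = 0.000232) and the receptor notch2 (2.43 against 1.26 RPKM, 0.98 ± 0.09 SE, adjusted p = 6.49e-09). Downward they were hes6 (8.62 against 14.2 RPKM, −0.76 ± 0.05 SE, adjusted p = 8.76e-11) and mib1, a ubiquitin ligase that Delta ligands need for signalling (3.46 against 4.15 RPKM, −0.28 ± 0.07 SE, adjusted p = 0.00289).

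At 6 h.p.f. 13 were called higher and 12 lower (40.6% and 39.0% of all transcripts). The largest rise was that of ncstn, which encodes the nicastrin subunit of the γ-secretase that cuts Notch. Its morphant libraries held 18.8 and 17.9 RPKM and its controls 4.33 and 4.79, without overlap (4.02-fold, log2 fold change 2.16 ± 0.10 SE, edgeR adjusted p = 9.21e-14). Next came mib1, with 40.9 and 38.2 RPKM against 14.2 and 13.9 (2.82-fold, 1.56 ± 0.05 SE, edgeR adjusted p = 2.69e-16).

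The largest falls at 6 h.p.f. were those of her2 (1.98 against 4.19 RPKM, log2 fold change −1.05 ± 0.28 SE, edgeR adjusted p = 0.00198) and hey2 (0.543 against 0.741 RPKM, −0.75 ± 0.19 SE, adjusted p = 0.00123).

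From 4 to 6 h.p.f. within morphants 13 pathway genes rose and 18 fell (32.1% and 61.4% of all transcripts), led by hes6 (8.62 to 194 RPKM) and mib1 upward and by her5 (103 to 5.62 RPKM) and hey2 (7.52 to 0.543 RPKM) downward. In the test of whether the change differed between morphants and controls, 11 were called higher and 15 lower (35.3% and 38.8% of all transcripts). The extremes were ncstn (2.37 ± 0.16 SE on the log2 scale) and mib1 (1.84 ± 0.09 SE) at one end and her12 (−2.18 ± 0.46 SE) and her2 (−1.55 ± 0.53 SE) at the other, with edgeR adjusted p of 2.58e-11, 2.26e-13, 0.000253 and 0.0128. The values of her12 and her2 rest partly on low levels at 4 h.p.f. (0.317 to 1.02 RPKM). Both genes passed the filter on level only through their 6 h.p.f. libraries.

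For each member the gene with the most similar course over the 10 libraries was found among the 9945 transcripts, as the smallest root mean square difference of log2(RPKM + 1) after centring. The closest were thap12a for dld (0.064) and lamc1 for notch1a (0.071). The remaining members were followed by txnb for dla (0.10), nid1b for her9 (0.12), skilb for notch3 (0.14), the transcript NM_200327 for dlc (0.18), uox for her1 (0.19), mespaa for her7 (0.27) and irx1b for her3 (0.29). The points share libraries and depth, so these are descriptions. For example lamc1 was at 21.7 RPKM in controls and 30.4 RPKM in morphants at 4 h.p.f., and at 33.2 and 63.4 RPKM at 6 h.p.f.

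In the icSHAPE libraries the same pair of genes was present early. The RPKM of dld was 38.2, 42.3, 48.2, 59.2, 59.7 and 45.2 at 0, 0.4, 1, 2, 4 and 6 h.p.f. in wild type. That of notch1a was 9.52, 14.6, 22.1, 49.8 and 46.3 from 0.4 h.p.f. on, and it was not listed at 0 h.p.f. No other member had a reactivity value before 6 h.p.f., when notch3, dlc, her1, her3, her7 and her9 were listed at 12.7 to 45.7 RPKM.

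The order of the Delta ligands in the icSHAPE libraries at 6 h.p.f. was not that of the RNA-seq. In wild type dlc was at 29.5 and dld at 45.2 RPKM, and in morphants at 35.6 and 37.1 RPKM, so dlc was higher and dld lower in morphants, opposite to the RNA-seq. The value of her1 was 45.7 in wild type and 65.4 RPKM in morphants, and that of her7 43.9 and 46.1 RPKM. For notch3 it was 21.0 and 19.0 RPKM, also opposite to the RNA-seq. For notch1a it was 46.3 and 52.4 RPKM, higher in morphants as in the RNA-seq. At 4 h.p.f. notch1a was at 49.8 RPKM in wild type and 36.7 in morphants, opposite to the RNA-seq. There dld was at 59.7 and 47.5 RPKM, lower in morphants as in the RNA-seq. The profiles at 6 h.p.f. also differ in scale. That of wild type listed 6996 transcripts with a median of 25.5 RPKM, and that of morphants 4303 with a median of 45.5 RPKM. Ranked among the transcripts listed, dlc was at percentile 54.9 in wild type and 36.9 in morphants. For dld the percentiles were 68.1 and 39.7, and for notch1a 68.9 and 55.9. The directions above therefore hold for RPKM only. With 1 pooled profile per condition these differences have no replicate check, and the cause of the disagreement was not tested.

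Reactivity, a fraction from 0 to 1 that is higher where a nucleotide is more flexible, was averaged over the valued nucleotides of transcripts valued along more than 50% of their length. The mean over the dld transcript was 0.287, 0.347, 0.279, 0.246, 0.295 and 0.297 at the 6 wild-type stages. It followed the median of all transcripts, at 0.297, 0.343, 0.277, 0.245, 0.289 and 0.291. The transcript of notch1a was at 0.223 at 2 h.p.f., with 61.2% of its nucleotides valued, and at 0.284 at both 4 and 6 h.p.f.; it lay under the median of all transcripts at each of these stages and farthest down at 2 h.p.f. (percentile 12.4).

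Single nucleotides moved more than the mean. In dld 30.9%, 29.8%, 15.8%, 21.2% and 17.9% of the nucleotides valued at both stages changed by more than 0.2 in the successive intervals, beside medians over transcripts of 27.7%, 25.8%, 16.1%, 22.8% and 18.5%. Of its 1675 nucleotides valued at all 6 stages, 110 stayed at or below 0.1 and 131 at or above 0.5, while 1141 (68.1%) had a range above 0.2, beside a median of 62.2% over 2270 transcripts. A stretch of 100 nt at positions 1001 to 1100 of the transcript was the least reactive of the 18 windows of dld at 0.4, 1, 4 and 6 h.p.f., with means of 0.249, 0.214, 0.192 and 0.218. Positions 401 to 500 were almost level with it at 0.4 h.p.f. (0.2487 against 0.2486) and close at 1 h.p.f. (0.221). At 2 h.p.f. they were lower (0.178 against 0.192). With 1 pooled profile per stage these ranks have no replicate check.

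At 6 h.p.f. 7 members could be profiled in wild type. Their means ran from 0.251 for her1 (percentile 7.12 of all profiled transcripts) over 0.271 for notch3, 0.284 for notch1a, 0.292 for her3, 0.297 for dld and 0.299 for dlc to 0.319 for her7 (percentile 88.8). The clock genes her1 and her7, which had similar levels, thus lay near opposite ends. At this stage only 8.0% of the nucleotides of her9 had a value.

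**Figure D4:**
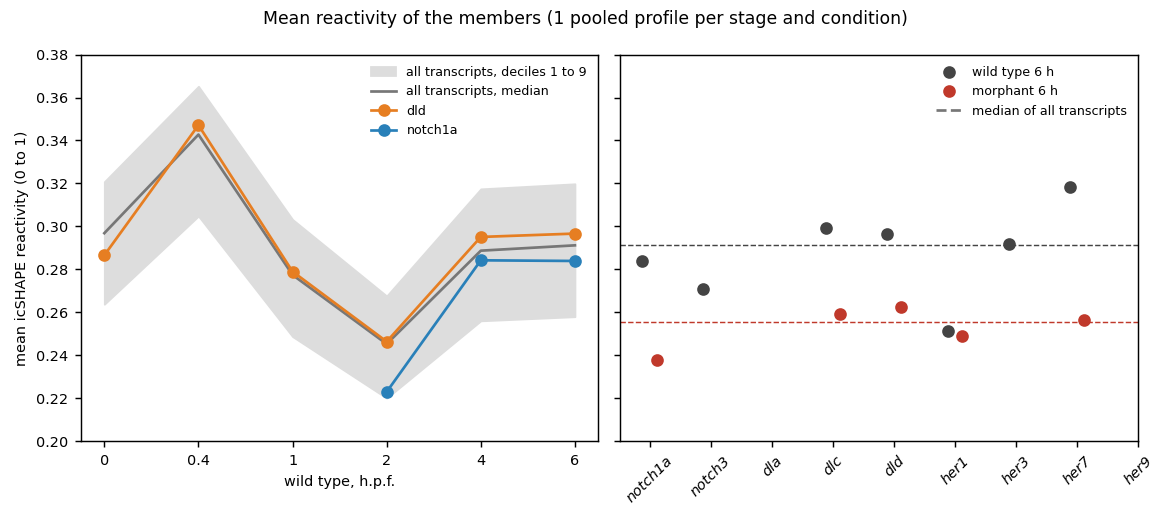
Left, mean icSHAPE reactivity of dld (orange) and notch1a (blue) at the 6 wild-type stages over the median and the range from the lowest to the highest decile of all transcripts (grey); dld peaks at 0.347 at 0.4 h.p.f. and is lowest at 0.246 at 2 h.p.f. Right, mean reactivity of the profiled members at 6 h.p.f. in wild type (black) and morphants (red). Dashed lines give the median of all transcripts (0.291 and 0.255). Only her1 has nearly the same mean in both, with nucleotides at exactly 0 included.

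In morphants 5 members were profiled at 6 h.p.f. Over the nucleotides valued in both profiles, mean reactivity changed from 0.283 to 0.238 for notch1a, from 0.303 to 0.259 for dlc, from 0.295 to 0.263 for dld and from 0.318 to 0.256 for her7. For her1 it was 0.249 in both (change 0.00025). The median change of all 3304 transcripts was −0.038 and 2.24% of them rose, and the share of nucleotides at exactly 0 was higher in the morphant profile (a median of 21.7% of a transcript, against 10.4% in wild type). For her1 that share was 16.3% in wild type and 25.9% in morphants.

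Changes above 0.2 were found at 39.2% of the nucleotides of her7 (percentile 93.7 of all transcripts), 38.5% of dlc, 33.7% of dld, 30.4% of her1 and 28.7% of notch1a, beside a median of 31.5%. Along her7 all 11 windows of 100 nt were lower in morphants, most at positions 401 to 500 (0.349 to 0.235). Along her1 10 of 17 were lower and 7 higher, with the largest rise at positions 1601 to 1700 (0.253 to 0.394) next to the largest fall at 1501 to 1600 (0.224 to 0.139). In dlc 23 of 29 and in notch1a 60 of 69 windows were lower. At 4 h.p.f. dld was the only member profiled in morphants, and its mean was 0.287 in wild type and 0.286 in morphants. All of these are comparisons of 1 profile with 1 profile, with nucleotides at exactly 0 included, and carry no test.

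**Figure D5:**
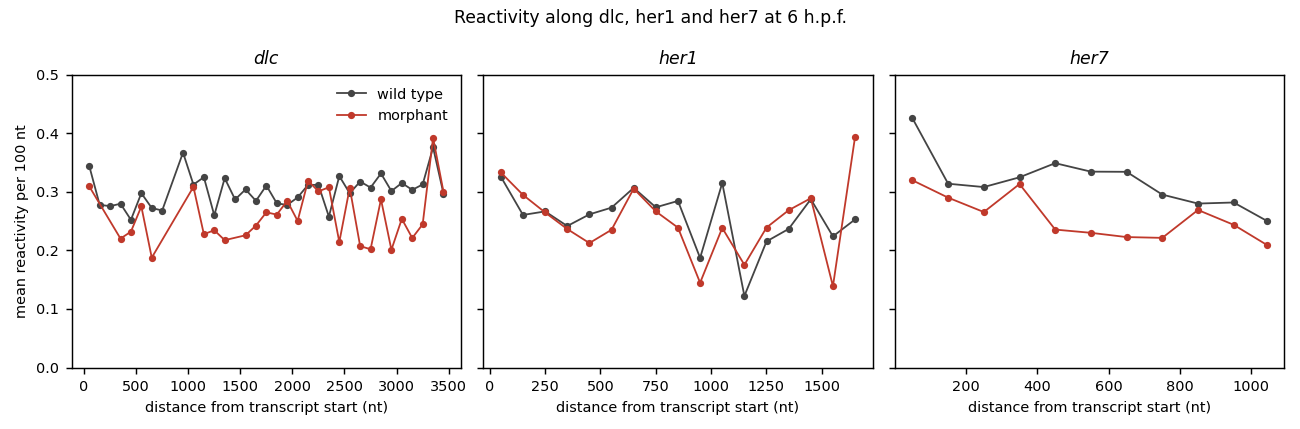
Mean reactivity per 100 nt along dlc, her1 and her7 at 6 h.p.f. in wild type (black) and morphants (red), against the distance from the transcript start in nt; windows with fewer than 50 valued nucleotides are left out. The morphant line lies below the wild-type line in all 11 windows of her7 and crosses it along her1.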

How the data were processed

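Polyadenylated RNA of whole zebrafish embryos was sequenced in 10 libraries, and RNA structure was deposited as 8 icSHAPE profiles. For the RNA-seq the authors trimmed reads with cutadapt and Trimmomatic, mapped them with Bowtie2 to the RefSeq zebrafish transcriptome, kept those with a mapping quality of at least 20, and deposited per transcript the counts of uniquely and of multiply mapped reads. The deposited RPKM values of the authors were those counts together, divided by transcript length and library total, and no transcript under 0.1 RPKM was listed. The icSHAPE files deposited by the authors give an RPKM and, for each nucleotide, a reactivity as a fraction from 0 to 1, made from NAI-N3 and DMSO libraries with replicates combined. Which icSHAPE libraries enter that RPKM is not given in the sources used here.

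Transcripts were named by RefSeq accession, of which 13579 of 13856 matched a symbol. Unique counts were tested with the quasi-likelihood test of edgeR 4.0.16 in R 4.3.3, with library totals as sizes, all 5 groups in 1 fit, a mean RPKM of at least 1, and Benjamini-Hochberg adjustment over 9945 transcripts at 0.05. Both mates of a pair were counted. Unlisted transcripts entered as 0 reads. Errors are SE of the fit, and n = 2 libraries in every group; nothing says that the libraries came from separate clutches, so p-values measure only the spread between these libraries. Alternatives were TMM scaling, DESeq2 1.42.0, limma 3.58.1 on log2(RPKM + 1) and log2(RPKM + 0.1), no filter, a replicate block, halved counts, only the groups compared, each library left out, unlisted transcripts at the listing limit, and unique with multiple reads; the last 2 were chosen after seeing the data. The test was also run on simulated counts, with the same spread for every transcript and changes only in transcripts with enough reads. That run therefore does not bear on calls from few reads. Reactivities were summarised with Python 3.11.15, pandas 2.3.3 and numpy 2.4.6, with no test, and plots drawn with matplotlib 3.10.9.

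Named genes were all members, the gene nearest in pattern to each, and from the pathway list the 2 largest rises and 2 largest falls called in each comparison. The members and lists were chosen with earlier results of these data known. The iCLIP peak lists were not used here, since they are in genome coordinates and no annotation of their build was at hand. No sequences are shown.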

Additional observations from a re-analysis of the deposited data

Results flagged for a closer look

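In 6 of the 9 members the change from 4 to 6 h.p.f. differed between morphants and controls, tested as an interaction in the edgeR fit, where 74.1% of all transcripts were called, so the count is no trait of these genes. The gene dla was also called in that test but is left out here, because it was unlisted in morphants at 4 h.p.f. The morphant change minus the control change was 1.03 on the log2 scale for dld, 0.63 for notch3 and 0.53 for notch1a. It was −2.12 for dlc, −1.163 for her3 and −0.74 for her1. The call of her1 (edgeR adjusted p = 0.0477) was lost with the replicate block (0.056) and without any 1 of 7 of the 8 libraries compared (0.0556 to 0.224). The values of dlc, her3 and her1 rest partly on low levels at 4 h.p.f. (0.243 to 3.43 RPKM), and the value of dld on levels of 33.9 to 59.0 RPKM in all 8 libraries.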

How the results depend on the processing

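Over the 9 members, 7 comparisons and 20 alternatives, 1195 of 1260 values kept their direction and their side of the threshold, 29 lost and 21 gained significance with the same direction, and 15 turned. The alternatives that left out 1 library were counted also where that library lay outside the comparison. There little but the shared estimate of spread could change, so many values were bound to stay the same. TMM scaling moved the median log2 fold change of all transcripts by 0.25, 0.57 and 0.83 in the control comparisons of 4 with 2, 6 with 4 and 6 with 2 h.p.f., and by 0.57 between the morphant stages, and the share of calls that were higher went from 33.9%, 32.3%, 31.4% and 34.3% to 51.9%, 48.2%, 47.5% and 48.0%; for morphants at 4 h.p.f. it went from 63.3% to 49.2%. In DESeq2 the members called lower in controls numbered 1 from 2 to 4 h.p.f. and 0 in both comparisons of 6 h.p.f., where dld had log2 fold changes of −0.0093 and −0.069 (DESeq2 adjusted p = 0.816 and 0.0625). In morphants at 6 h.p.f. TMM and DESeq2 each called 4 members lower. With unlisted transcripts at the listing limit, chosen after seeing the data, 1 member was called lower in morphants at 4 h.p.f., and dla turned to −0.059 from 2 to 4 h.p.f. in controls, 0.055 in morphants at 4 h.p.f. and −0.73 in the interaction, where limma on log2(RPKM + 1) gave −0.33. For her1 from 2 to 4 h.p.f. the sign turned with TMM (0.16), DESeq2 (0.23), limma with a pseudocount of 1 (0.032) or 0.1 (0.12), unique and multiple reads together (0.062, chosen after seeing the data), and between single libraries left out (−0.53 to 0.68). For her1 in morphants at 6 h.p.f. it turned with TMM (−0.038), DESeq2 (−0.066) and with single libraries left out (−0.018 to 0.093), and for notch3 at 4 h.p.f. with single libraries left out (−0.15 to 0.0034). None of these turned values passed the test except dla in the interaction. The causes were not tested beyond the construction of each alternative.

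The replicate numbers did not pair the libraries (deviation correlations −0.031 to 0.056). With the replicate block 62 of 63 member values were the same, and her1 in the interaction lost its call (edgeR adjusted p = 0.056). The iCLIP alternative was not run. Using medians, or leaving out zeros, moved every mean reactivity (dld at 2 h.p.f. from 0.246 to 0.141 or 0.289). Leaving out zeros also turned the difference between morphants and wild type at 6 h.p.f. for dlc and dld.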
